A study of Homo sapiens with 9 samples.

Results

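The serpins are a family of protease inhibitors and of related proteins that share their fold. They were taken from the rows of the expression table whose symbol is SERPIN, a clade letter from A to I and a number, also where it is joined to other symbols by commas, and 34 of the 24069 rows are described, none of them a combined locus. RNA was sequenced in 9 libraries of human LC-2/ad, an established line from a lung adenocarcinoma with the fusion gene CCDC6-RET, with libraries A, B and C for each of 3 groups. PR2 and PR1 are ponatinib-resistant derivatives of that line that were cultured in 200 nM ponatinib, an inhibitor of several kinases, RET among them. The third group, called LC2 in the labels, is the parental line, for which no drug is stated, so a resistant state and exposure to ponatinib cannot be told apart in comparisons with it. Each derivative is a single resistant line, and nothing in the labels tells if A, B and C were grown separately, so the p-values rest on a spread that could be technical.

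An inhibitory serpin offers a protease an exposed loop as bait. When the protease cuts the loop, the serpin refolds and traps it in a covalent complex, which receptors of the LDL receptor family clear. Clade A serpins are mostly secreted, and many are made in the liver. Clade B serpins mostly stay inside the cell, where they protect it from its own or incoming proteases. SERPINE2 (protease nexin-1) restrains thrombin, urokinase and tissue plasminogen activator outside the cell. SERPINH1 (HSP47) and SERPINB5 (maspin) keep the serpin fold without acting as classical protease inhibitors.

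Levels are given in FPKM, fragments relative to the length of the transcript and the size of the library. The libraries held 11263 to 11629 rows at 1 FPKM or more, and single-fragment steps among low genes put their depths between 0.755 and 1.003 of that of parental A. A value of 0 can be a failed estimate here, since TUBB and BRD2, which most cells express, were listed at 0 in every library, so serpins at 0 are described as listed at 0. The epithelial markers EPCAM, KRT7, KRT8, KRT18, KRT19, CDH1, NKX2-1, NAPSA and SFTPB all passed the filter for testing, their summed level being 6866 to 8875 FPKM in PR2, 4938 to 7267 in PR1 and 5572 to 6598 in parental cells. In the fit described below, 1 of these 9 rose and 2 fell in PR2 against parental cells, and 2 rose and 1 fell in PR1. Each made 33.3%, beside 23.4% and 15.5% of all tested rows. SFTPB had log2 differences of −6.08 in PR2 and −3.60 in PR1, and NAPSA of 1.85 in PR1. Markers of hepatocytes, the main source of clade A serpins in the body, did not pass it. APOB and TTR were listed at 0 everywhere, and the highest value on that list was 2.75 FPKM, for FGB. The fibroblast list summed to 9.48 to 10.8 FPKM in PR2, 5.98 to 8.43 in PR1 and 3.67 to 8.05 in parental cells, and the blood list to 0.778 to 1.27 FPKM in PR2, 1.25 to 1.84 in PR1 and 3.69 to 9.25 in parental cells. The neuron list, led by TUBB3, summed to 79.5 to 104 FPKM in PR2, 8.85 to 33.8 in PR1 and 17.4 to 48.9 in parental cells. The part of such cells in the serpin values was not tested. In groups of bulk libraries such as these, fewer cells that express a gene and less RNA per cell cannot be told apart.

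Of the 34 serpins, 11 reached 1 FPKM in at least 3 libraries and were tested with limma on log2(FPKM + 1), with p-values adjusted by the Benjamini-Hochberg method over all 12011 rows tested. They were SERPINA1, SERPINA3, SERPINB1, SERPINB5, SERPINB6, SERPINB7, SERPINB8, SERPINB9, SERPINE2, SERPINF2 and SERPINH1. SERPINB7 reached that filter only through the PR2 libraries, where it was high. SERPINA3 reached it only through its parental level, since PR2 B and PR2 C alone would not have been enough. A gene is said to have changed at an adjusted p under 0.05.

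The serpin transcripts of these cells came mostly from a few genes, and their make-up differed between the groups. Their summed level was 312 ± 73.7 FPKM in PR2, 280.2 ± 31.02 in PR1 and 408 ± 62.15 in parental cells (SD, n = 3 each). SERPINH1 was the most abundant in each derivative library, at 40.4% to 49.7% of the sum in PR2 and 53.3% to 58.5% in PR1. In parental cells it shared the lead with SERPINB1, which was the highest in parental C at 29.6%. SERPINB6 was among the 3 most abundant in each PR2 and PR1 library, at 14.6% to 24.0% of the sum, and in no parental library. That rank does not mark a rise, since SERPINB6 averaged 58.6 FPKM in PR2, 47.9 in PR1 and 71.0 in parental cells. In parental A it missed the rank narrowly, at 56.8 FPKM against 57.4 for SERPINA1. SERPINA1 held such a rank in each parental library, at 17.1% to 21.98%, and in PR2 B and PR2 C, at 13.9% and 17.2%, but in no PR1 library.

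**Figure D1:**
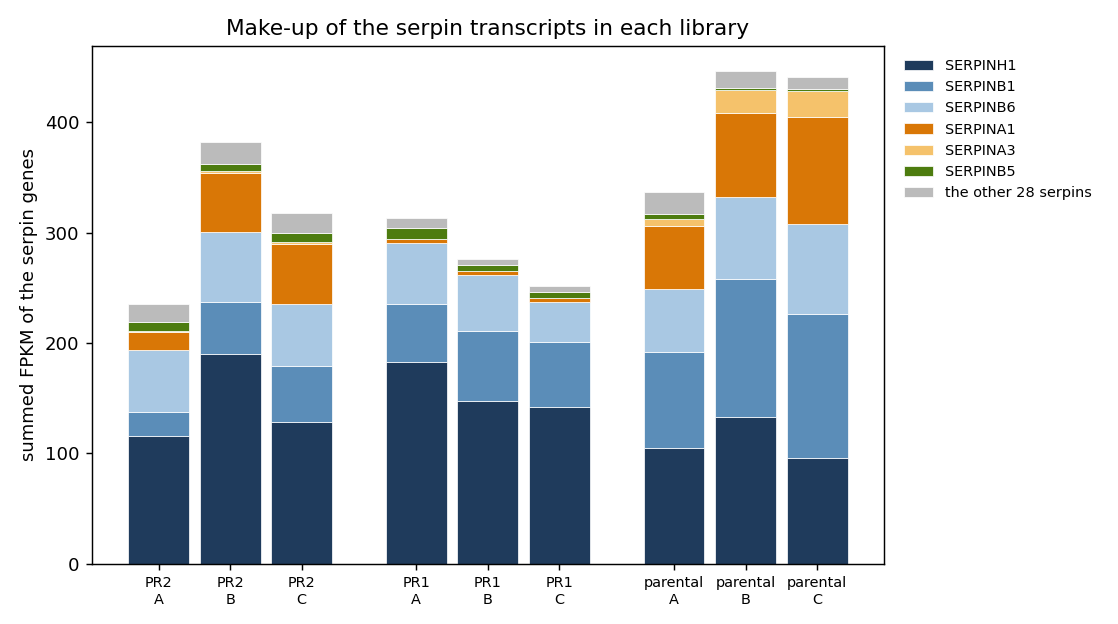
Summed FPKM of the 34 serpin genes (vertical axis, linear from 0) in each of the 9 libraries, split into 6 named genes and the other 28. SERPINH1 takes the largest share of each PR2 and PR1 library, and the SERPINA1 share is thin in the PR1 libraries.

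SERPINE2, which inhibits thrombin and urokinase at the cell surface, was higher in PR2 than in both other groups. SERPINE2 values were 6.04, 6.70 and 5.63 FPKM in PR2, 3.70, 1.15 and 1.17 in PR1, and 2.24, 1.38 and 1.62 in parental cells. No PR2 library overlapped either other group. The log2 fold change was 1.38 ± 0.28 in PR2 against parental cells (SE, limma adjusted p = 0.0056) and 1.35 ± 0.28 in PR2 against PR1 (limma adjusted p = 0.0082). In PR1 against parental cells it was 0.04 ± 0.28 (limma adjusted p = 0.95). SERPINE3 was not tested, with 0.400 FPKM at most.

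Of the 11 clade A genes, 2 were tested, SERPINA1 and SERPINA3. Both fell in PR1 against parental cells, and in PR2 SERPINA3 fell while SERPINA1 was not called. SERPINA1 encodes alpha-1-antitrypsin, the main inhibitor of neutrophil elastase in the lung. It stood at 16.2, 53.2 and 54.6 FPKM in PR2, at 3.46, 3.73 and 3.05 in PR1, and at 57.4, 76.7 and 96.98 in parental cells. The PR1 values lay far below both other groups, and the highest PR2 value lay just under the lowest parental one. SERPINA1 fell by 4.11 ± 0.40 on the log2 scale in PR1 against parental cells (SE, limma adjusted p = 0.00016). In PR2 the difference from parental cells was −1.03 ± 0.40 and missed the threshold (limma adjusted p = 0.089), though at −0.67 it passed after removal of the A libraries (limma adjusted p = 0.028). Without PR2 A alone it was −0.47 and did not pass (limma adjusted p = 0.15). PR2 was above PR1 by 3.08 ± 0.40 (limma adjusted p = 0.00066), a ratio of mean FPKM of 12.1.

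SERPINA3 encodes alpha-1-antichymotrypsin, an acute-phase inhibitor of cathepsin G and chymase. SERPINA3 stood at 0.509, 1.62 and 2.04 FPKM in PR2, at 0.0159, 0.0419 and 0.0647 in PR1, and at 6.33, 20.5 and 22.9 in parental cells. The groups did not overlap in any pair, and within each group the A library was the lowest. SERPINA3 fell in both derivatives, with log2 fold changes of −2.76 ± 0.41 in PR2 and −3.90 ± 0.41 in PR1 (SE, limma adjusted p = 0.0010 and 0.00026). It reached 1 FPKM only in the parental libraries, PR2 B and PR2 C. SERPINA3 thus passed the filter through its parental level, and its falls are not free of it. With a pseudocount of 0.1 the fall in PR1 was 6.70 on the log2 scale, since the PR1 values lie far under 1 FPKM. PR2 and PR1 differed by 1.14 ± 0.41 (limma adjusted p = 0.078), a difference that passed with the letter as a block (limma adjusted p = 0.017), after removal of the A libraries (limma adjusted p = 0.0013), without PR2 A (limma adjusted p = 0.040) and with only the PR2 and PR1 libraries in the fit (limma adjusted p = 0.018). With a pseudocount of 0.1 that difference was 3.23 (limma adjusted p = 0.0033) and with 0.5 it was 1.70 (limma adjusted p = 0.028). SERPINA5, the protein C inhibitor, was not tested and stood at 0.0612 to 0.249 FPKM in PR2, 0 to 0.0295 in PR1 and 0.210 to 0.498 in parental cells.

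SERPINA1 and SERPINA3 lie in the same serpin cluster on chromosome 14. They fell together in PR1, so the 250 bases before an annotated start of each gene are given (RefSeq, build GRCh38.p14), the SERPINA1 window at chr14:94390636-94390885 on the minus strand and the SERPINA3 window at chr14:94612141-94612390 on the plus strand, 5′ to 3′.
SERPINA1: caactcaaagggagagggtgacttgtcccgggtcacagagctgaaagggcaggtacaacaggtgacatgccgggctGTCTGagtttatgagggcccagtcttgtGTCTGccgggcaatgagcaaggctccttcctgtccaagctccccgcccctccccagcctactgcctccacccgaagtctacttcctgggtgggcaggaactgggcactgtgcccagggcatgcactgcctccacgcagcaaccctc
SERPINA3: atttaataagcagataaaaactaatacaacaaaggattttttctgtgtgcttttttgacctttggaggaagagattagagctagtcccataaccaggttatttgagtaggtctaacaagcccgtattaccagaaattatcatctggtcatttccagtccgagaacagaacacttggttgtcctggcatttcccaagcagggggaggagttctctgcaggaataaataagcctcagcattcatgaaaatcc
Capitals mark matches, on either strand, to any of 6 motifs: the SMAD box CAGAC, the AP-1 site TGANTCA, the E-box CACGTG, the TEAD site GGAATG, the STAT site TTCNNNGAA and the TATA box TATAAA. The SERPINA1 window held the SMAD box letters at 2 places, and the SERPINA3 window held none of the 6 motifs. Windows were matched for 10 of the 11 tested serpins, and the other was SERPINF2. Several starts are listed for SERPINA1 (2), SERPINB6 (4), SERPINB7 (3), SERPINE2 (2) and SERPINH1 (2). For these only the window of the start nearest the 5′ end of the gene was searched.

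Among the clade B serpins, which work inside the cell, SERPINB9 and SERPINB1 were lower in PR2 than in parental cells. SERPINB9 inhibits granzyme B, the killer-cell protease. SERPINB9 stood at 0.798, 1.43 and 1.37 FPKM in PR2, at 1.013, 0.749 and 0.665 in PR1, and at 5.79, 5.34 and 4.33 in parental cells. Every derivative library lay below every parental one, and PR2 and PR1 overlapped. SERPINB9 fell in both, with log2 fold changes of −1.49 ± 0.17 in PR2 and −1.76 ± 0.17 in PR1 against parental cells (SE, limma adjusted p = 0.00019 and 0.00013). RefSeq places the antisense RNA SERPINB9-AS1 over SERPINB9, and without stated strand information reads of the pair cannot be told apart.

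SERPINB1, an inhibitor of neutrophil elastase and related proteases, was one of the most abundant serpins. SERPINB1 stood at 21.2, 47.1 and 51.2 FPKM in PR2, at 51.9, 63.3 and 58.3 in PR1, and at 87.0, 125 and 130.5 in parental cells. The 3 groups did not overlap. SERPINB1 fell by 1.57 ± 0.30 in PR2 against parental cells on the log2 scale (SE, limma adjusted p = 0.0046). In PR1 the difference of −0.95 ± 0.30 missed the threshold (limma adjusted p = 0.061). It passed with the letter as a block (limma adjusted p = 0.0093), after removal of the A libraries (limma adjusted p = 0.0032), without parental A (limma adjusted p = 0.047) and with only the PR1 and parental libraries in the fit (limma adjusted p = 0.015). PR2 and PR1 differed by −0.62 ± 0.30 (limma adjusted p = 0.18), which passed with the block (limma adjusted p = 0.042). Without PR2 A that difference was −0.23 (limma adjusted p = 0.48), and after removal of the A libraries −0.30 (limma adjusted p = 0.18).

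SERPINB6, an inhibitor of cathepsin G found in many cell types, completes the chromosome 6 cluster with SERPINB1 and SERPINB9. SERPINB6 stood at 56.4, 63.6 and 55.7 FPKM in PR2, at 56.0, 51.0 and 36.7 in PR1, and at 56.8, 74.1 and 82.2 in parental cells. The PR1 values lay below the parental ones and PR2 overlapped both. SERPINB6 passed in no comparison, with log2 differences of −0.26 in PR2 and −0.56 in PR1 from parental cells (limma adjusted p = 0.38 and 0.081). The PR1 difference was −0.84 after removal of the A libraries (limma adjusted p = 0.023) and −0.71 without parental A (limma adjusted p = 0.041).

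A second set of clade B genes, on chromosome 18, was called higher in PR2 than in parental cells. Of these, SERPINB7 passed the filter only through PR2, and most alternatives lost the SERPINB8 call. SERPINB5, or maspin, is an epithelial serpin first known as a tumour suppressor of the breast. SERPINB5 stood at 8.19, 6.86 and 7.68 FPKM in PR2, at 9.73, 4.92 and 5.51 in PR1, and at 4.54, 2.22 and 1.74 in parental cells. Both derivatives lay above all parental libraries. SERPINB5 rose in PR2 by 1.23 ± 0.28 on the log2 scale (SE, limma adjusted p = 0.012). It rose in PR1 by 1.03 ± 0.28 (limma adjusted p = 0.036), a call lost without PR1 A, PR1 C, parental B or parental C (limma adjusted p = 0.11, 0.068, 0.12 and 0.13). The PR1 call was also lost with no filter (limma adjusted p = 0.071) and with only the PR1 and parental libraries in the fit (limma adjusted p = 0.058).

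SERPINB7, or megsin, is best known from the skin and the kidney. SERPINB7 stood at 2.99, 1.70 and 1.51 FPKM in PR2, at 0.341, 0.111 and 0.105 in PR1, and at 0.653, 0.175 and 0.10004 in parental cells. No PR2 library overlapped the others, and the A library was the highest of each group. SERPINB7 was higher in PR2 than in parental cells by 1.22 ± 0.21 and than in PR1 by 1.35 ± 0.21 on the log2 scale (SE, limma adjusted p = 0.0025 and 0.0020). With a pseudocount of 0.1 these differences were 2.59 and 2.96.

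SERPINB8, which can inhibit the convertase furin, stood at 2.84, 2.12 and 2.64 FPKM in PR2, at 1.43, 0.791 and 1.04 in PR1, and at 1.31, 1.23 and 1.86 in parental cells. The PR2 libraries lay above all others, and PR1 and parental values overlapped. SERPINB8 was higher in PR2 than in PR1 by 0.77 ± 0.16 on the log2 scale (SE, limma adjusted p = 0.0100), or 1.18 with a pseudocount of 0.1. Against parental cells it rose in PR2 by 0.52 ± 0.16 (limma adjusted p = 0.045). That call was lost in 11 of 14 alternatives, among them the fits without PR2 A, PR2 B, PR2 C, parental A or parental B (limma adjusted p = 0.11, 0.054, 0.13, 0.097 and 0.14).

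SERPINB5, SERPINB7 and SERPINB8, which were all called higher in PR2 than in parental cells, are shown with their windows of 250 bases, with the same motifs in capitals (RefSeq, build GRCh38.p14, all on the plus strand). SERPINB7 passed the filter only through PR2, and the SERPINB8 call was lost in 11 of 14 alternatives. The windows lie at chr18:63476708-63476957 for SERPINB5, chr18:63752807-63753056 for SERPINB7 and chr18:63969831-63970080 for SERPINB8.
SERPINB5: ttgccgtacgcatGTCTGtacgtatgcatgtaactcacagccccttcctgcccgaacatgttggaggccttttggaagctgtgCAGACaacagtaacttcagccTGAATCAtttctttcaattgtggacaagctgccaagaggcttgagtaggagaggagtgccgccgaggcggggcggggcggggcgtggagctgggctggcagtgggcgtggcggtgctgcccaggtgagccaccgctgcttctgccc
SERPINB7: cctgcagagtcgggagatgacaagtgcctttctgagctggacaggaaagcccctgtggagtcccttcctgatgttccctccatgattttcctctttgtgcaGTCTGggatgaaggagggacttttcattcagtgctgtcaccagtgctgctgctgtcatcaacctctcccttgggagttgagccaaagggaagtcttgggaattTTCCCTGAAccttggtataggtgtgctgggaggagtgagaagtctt
SERPINB8: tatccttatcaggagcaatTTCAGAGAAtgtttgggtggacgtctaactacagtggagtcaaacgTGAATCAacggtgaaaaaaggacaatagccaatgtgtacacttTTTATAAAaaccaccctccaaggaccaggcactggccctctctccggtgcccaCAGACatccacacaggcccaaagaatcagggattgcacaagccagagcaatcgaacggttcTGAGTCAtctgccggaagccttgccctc
All 3 windows held the SMAD box letters. SERPINB5 and SERPINB8 held the AP-1 letters, SERPINB8 at 2 places, of which one ends 22 bases before the start. SERPINB7 and SERPINB8 held the STAT letters, and SERPINB8 held the TATA box letters on both strands at overlapping positions. Among the 10 tested serpins with a window, 4 held the SMAD box, against 38.0% of the 35116 windows of this length in the table. The AP-1 letters were in 2 of the 10 (6.57% of all windows), the STAT letters in 3 (6.57%) and the TATA box in 2 (10.7%). The E-box and the TEAD site were in none of the 10, against 6.34% and 11.9% of all windows. A match describes letters only and is not a binding site.

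SERPINH1, the collagen chaperone HSP47 of the endoplasmic reticulum, was the most abundant serpin overall. SERPINH1 stood at 116, 189.9 and 128 FPKM in PR2, at 183, 147 and 142 in PR1, and at 105, 133 and 95.4 in parental cells. The PR1 libraries lay above the parental ones, and PR2 overlapped both. None of its differences passed. The log2 difference was 0.36 ± 0.21 in PR2 and 0.51 ± 0.21 in PR1 against parental cells (SE, limma adjusted p = 0.26 and 0.15), while PR2 minus PR1 was −0.15 ± 0.21 (limma adjusted p = 0.69).

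SERPINF2 encodes alpha-2-antiplasmin, the main inhibitor of plasmin. SERPINF2 stood at 1.75, 2.70 and 2.37 FPKM in PR2, at 0.835, 1.79 and 0.931 in PR1, and at 0.941, 1.62 and 1.118 in parental cells. Within each group the B library was the highest. The log2 differences of PR2 were 0.56 ± 0.20 from parental cells and 0.60 ± 0.20 from PR1 (SE, limma adjusted p = 0.070 and 0.060). The difference between the derivatives passed with the letter as a block (limma adjusted p = 0.0076), without PR2 A (limma adjusted p = 0.043) and without PR1 B (limma adjusted p = 0.026), and that from parental cells passed without PR2 A (limma adjusted p = 0.048).

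**Figure D2:**
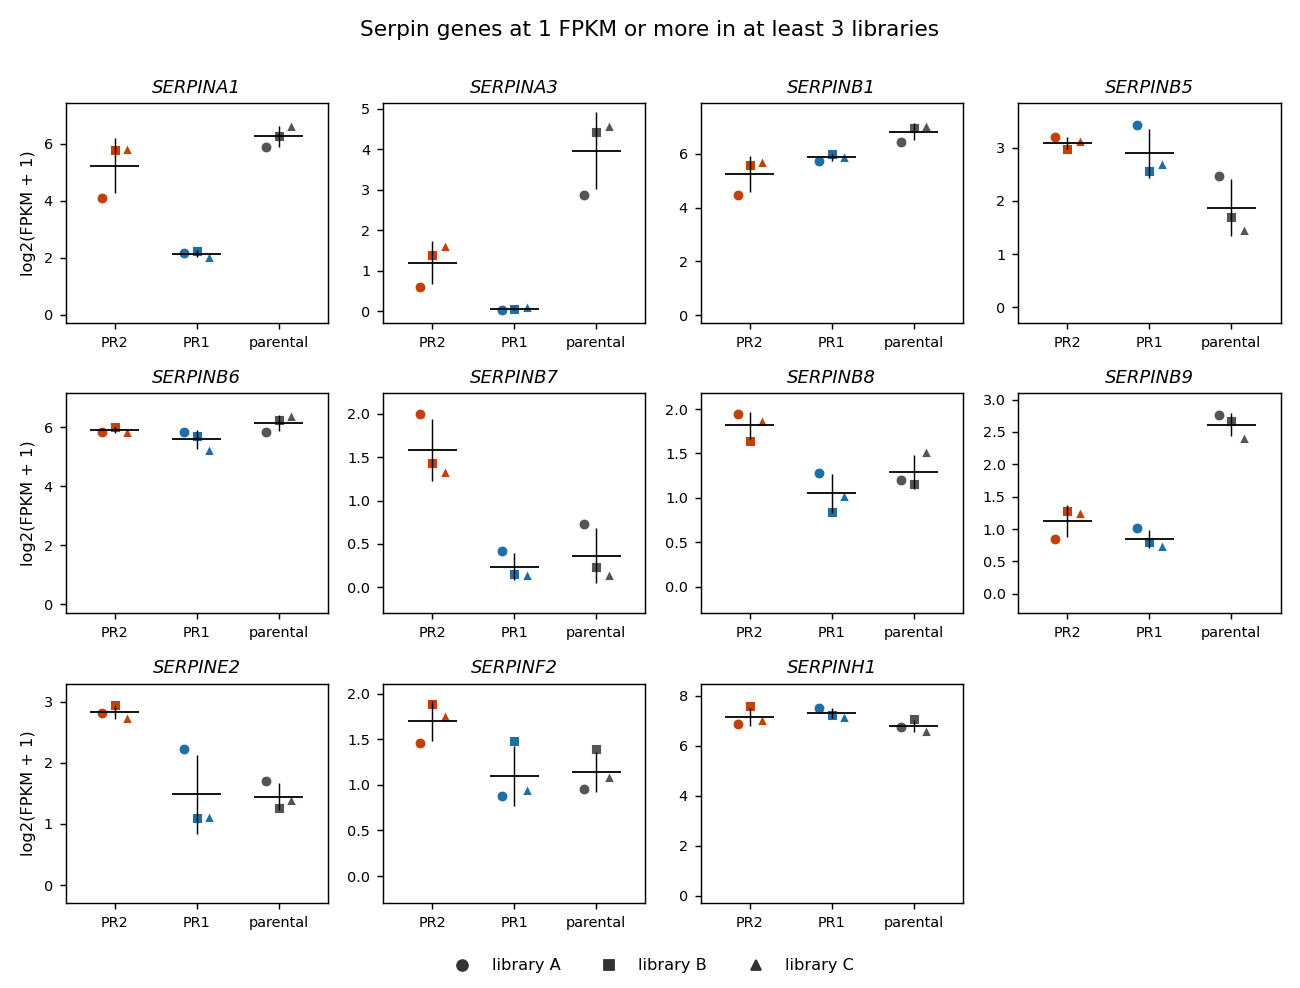
Level of each of the 11 tested serpins on the log2(FPKM + 1) scale (vertical axis, its range differing by gene) in PR2, PR1 and parental libraries, with circles, squares and triangles for libraries A, B and C. Horizontal lines are group means and vertical lines 1 SD (n = 3). SERPINE2 is highest in PR2, SERPINA1 is lowest in PR1, and SERPINB9 is low in both derivatives.

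Of the 11 tested serpins, SERPINB7 entered through its PR2 level and SERPINA3 through its parental level, so the counts are not free of the filter. Counted over the 11, PR2 against parental cells gave 4 that rose and 3 that fell, where 13.6% of all tested rows rose and 9.83% fell, or 23.4% in all. The risers were SERPINB5, SERPINB7, SERPINB8 and SERPINE2, and SERPINA3, SERPINB1 and SERPINB9 fell. In PR1 against parental cells 1 rose, SERPINB5, and 3 fell, SERPINA1, SERPINA3 and SERPINB9, where 7.56% of all tested rows rose and 7.98% fell, or 15.5% in all. In PR2 against PR1, 4 were higher, SERPINA1, SERPINB7, SERPINB8 and SERPINE2, and none was lower, where 19.9% of all tested rows differed, 1324 higher and 1071 lower (8.92%). At an unadjusted p under 0.05 limma gave 9 in PR2 and 7 in PR1 against parental cells and 6 in PR2 against PR1, where it gave 4323, 3555 and 4041 of the 12011 rows. The letter as a block raised the count for PR2 against PR1 to 7, 6 higher and 1 lower, with SERPINA3, SERPINB1 and SERPINF2 added. The share of all tested rows under the block was not counted, so that rise is not read as one of serpins. The median log2 difference of the 11 was 0.36 in PR2 and −0.24 in PR1 against parental cells and 0.60 in PR2 against PR1, beside 0.03, 0.05 and 0.0038 over all tested rows. Few serpins entered these counts, and the comparisons with parental cells share those 3 libraries, as the other pairs share theirs, so they are given side by side as a description.

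**Figure D3:**
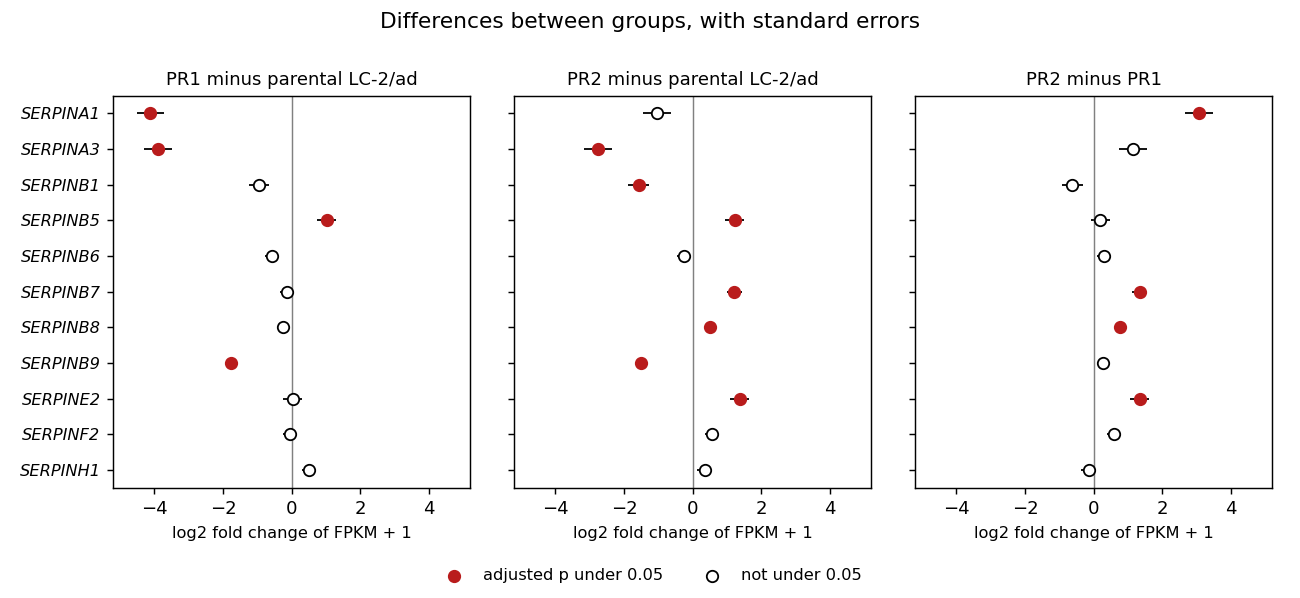
Log2 fold change of FPKM + 1 (horizontal axis) with its standard error for each tested serpin in PR1 minus parental, PR2 minus parental and PR2 minus PR1. Filled points passed limma at an adjusted p under 0.05 and open points did not. SERPINE2, SERPINB5 and SERPINB7 are the largest rises of PR2 against parental cells among them, and SERPINA1 and SERPINA3 are the largest falls of PR1.

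The other 23 serpins were not tested. Of these, 8 were listed at 0 in every library: SERPINA2, SERPINA4, SERPINA7, SERPINA10, SERPINA11, SERPINA12, SERPINB11 and SERPINB12. The squamous cell carcinoma antigens SERPINB3 and SERPINB4, are near-identical inhibitors whose reads cannot be assigned to either with certainty, and SERPINB3 reached the highest value among the untested serpins. SERPINB3 stood at 0, 0.0169 and 0.0509 FPKM in PR2, at 0.134, 0 and 0.114 in PR1, and at 4.40, 2.37 and 0.766 in parental cells. SERPINB4 stood at 0, 0.0871 and 0.0876 FPKM in PR2, at 0.101, 0 and 0.0131 in PR1, and at 1.75, 0.856 and 0.164 in parental cells. The sum of the pair was at most 0.139 FPKM in PR2 and 0.235 in PR1, and at least 0.929 in parental cells, so the parental libraries lay above all the others. When every row above 0 in any library was tested, SERPINB3 was lower in PR2 and in PR1 than in parental cells (limma adjusted p = 0.013 and 0.022), while SERPINB4 was not called (limma adjusted p = 0.076 and 0.086).

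Of 3 tested squamous markers, 1 fell in each derivative, KRT6A. That is 33.3% in PR2 and in PR1 against parental cells, beside 23.4% and 15.5% of all tested rows. With so few genes the share is not read as a result about the list. KRT6A, a keratin of stressed and squamous epithelium, averaged 1.005 FPKM in PR2, 0.861 in PR1 and 24.7 in parental cells, with log2 fold changes of −3.16 and −3.39 in PR2 and PR1 against parental cells (limma adjusted p = 0.0051 and 0.0055). The 7 squamous markers with a row summed to 27.5 to 46.5 FPKM in PR2, 34.0 to 106.6 in PR1 and 42.0 to 232 in parental cells, and 3 of them were tested. KRT6A was the only tested one called in the comparisons with parental cells, and TP63 was lower in PR2 than in PR1 (−1.19, limma adjusted p = 0.028), a call lost without PR2 A, PR2 B, PR1 B or PR1 C (limma adjusted p = 0.056, 0.052, 0.065 and 0.095). The part of squamous-type cells in the SERPINB3 and SERPINB4 values was not tested.

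SERPING1, the C1 inhibitor of complement, stood at 0.342, 3.14 and 2.596 FPKM in PR2, at 0.241, 0.431 and 0.296 in PR1, and at 0.555, 0.966 and 0.591 in parental cells. PR2 B and C lay above all other libraries, and PR2 A lay among the PR1 values. SERPINF1, the antiangiogenic factor PEDF, stood at 1.25, 1.02 and 0.810 FPKM in PR2, 0.542, 0.644 and 0.586 in PR1 and 0.564, 0.563 and 0.327 in parental cells, with PR2 the highest throughout. With no filter SERPINF1 was higher in PR2 than in parental cells by 0.45 (limma adjusted p = 0.015), as was SERPINB2 (PAI-2, an inhibitor of urokinase) by 0.34 (limma adjusted p = 0.0048), and SERPINA5 was lower in PR1 by 0.45 (log2 difference −0.45, limma adjusted p = 0.015). SERPINB2 stood at 0.195 to 0.375 FPKM in PR2, 0.0151 to 0.106 in PR1 and 0 to 0.0600 in parental cells. The neuronal serpin SERPINI1 reached 0.276 FPKM at most, and the antithrombin gene SERPINC1 0.135. SERPINA6, SERPINA9, SERPINB10, SERPINB13, SERPIND1 and SERPINI2 stayed at or under 0.0391 FPKM.

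In gene order, RefSeq places 10 of the serpins in the chromosome 14 cluster, 3 on chromosome 6 and 10 in the chromosome 18 cluster. On chromosome 14 the level stood out at SERPINA1 in each group and at SERPINA3 in parental cells and, less so, in PR2. In PR1 SERPINA3 averaged 0.0408 FPKM. The 8 others there were at 0.498 FPKM or less. Of the nearest protein-coding genes with a row on either side, PPP4R4 averaged 0.0462 FPKM in PR2, 0.0249 in PR1 and 0.231 in parental cells. GSC, on the other side, was listed at 0 in all derivative libraries, against 0.557 FPKM on average in parental cells. On chromosome 6 the flanking genes WRNIP1 and NQO2 passed in no comparison (log2 difference −0.04 and 0.23 in PR2 against parental cells, limma adjusted p = 0.89 and 0.37). On chromosome 18 the cluster held both directions. SERPINB4 and SERPINB3 were highest in parental cells, while SERPINB5 on one side of them and SERPINB7 and SERPINB8 on the other were highest in PR2 or shared the high level with PR1. Its flanking gene VPS4B was not called (log2 difference 0.41 in PR2 against parental cells, limma adjusted p = 0.14). CDH7 was lower in PR2 than in PR1 (−1.04, limma adjusted p = 0.0013) and rose in PR1 against parental cells (1.05, limma adjusted p = 0.0017).

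**Figure D4:**
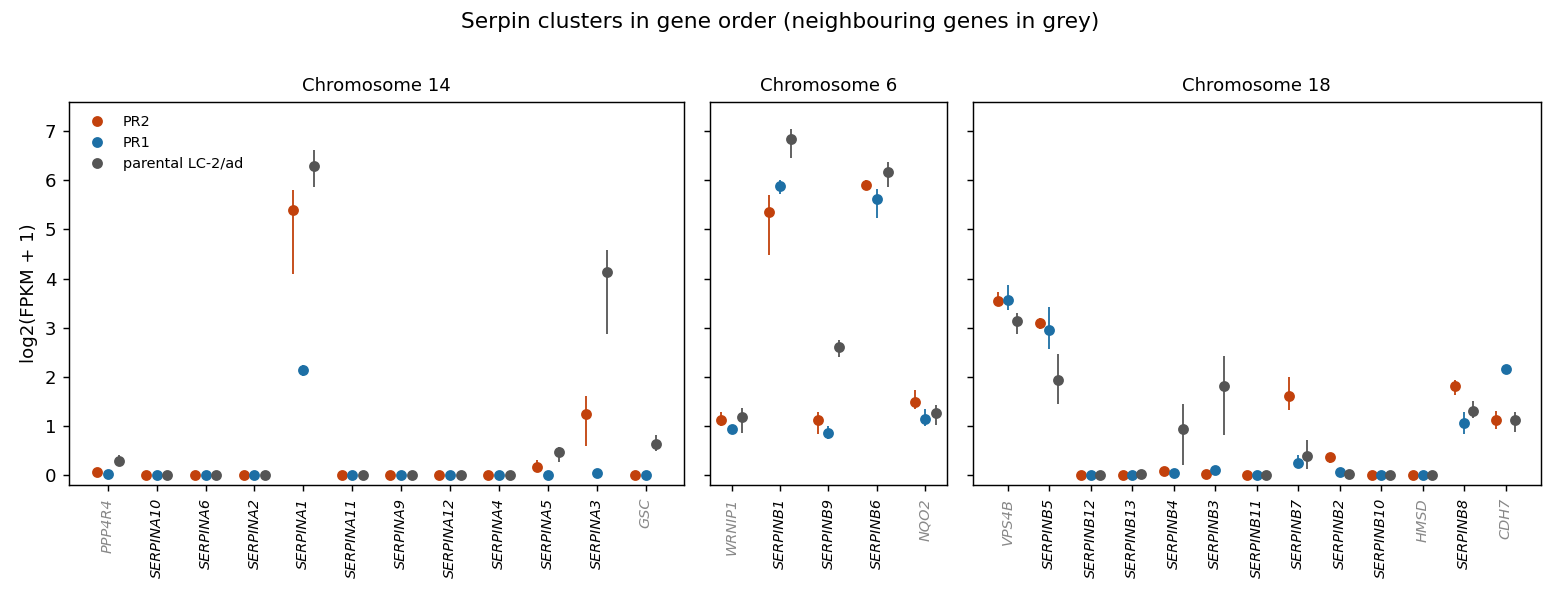
Mean FPKM of each gene, as log2(mean + 1) on the vertical axis, with a line from the lowest to the highest of 3 libraries, for serpins (black names) and neighbours (grey names) in gene order on chromosomes 14, 6 and 18. Points are PR2, PR1 and parental cells from left to right. On chromosomes 14 and 18 serpins at clear levels stand beside others at or near 0, on chromosome 6 all 3 are at clear levels, and SERPINB3 and SERPINB4 peak in parental cells beside SERPINB7, which peaks in PR2.

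Genes that act with the serpins were read from 8 lists of proteases, receptors, partners and other inhibitors, with 86 tested genes in all. Of these, 14 rose and 19 fell in PR2 against parental cells, 7 rose and 16 fell in PR1, and 18 were higher and 13 lower in PR2 than in PR1. These shares were 38.4%, 26.7% and 36.0% of the 86, beside 23.4%, 15.5% and 19.9% of all tested rows. For the last comparison the total of 31 was 17, 18, 15 and 17 without PR2 B, PR2 C, PR1 B and PR1 C. For PR1 against parental cells the total of 23 was 15 without parental B. Some of the 86, such as CST2 and PCSK5, passed the filter through 1 group alone, so these counts are not free of the filter.

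The plasminogen system holds urokinase, a target of SERPINE2, and its partners. Of 11 tested members, 3 rose and 1 fell in PR2 against parental cells, 2 rose and none fell in PR1, and 3 were higher and 1 lower in PR2 than in PR1. The called shares were 36.4%, 18.2% and 36.4%, beside 23.4%, 15.5% and 19.9% of all tested rows, so that of PR1 was near the background. PLAUR, the urokinase receptor, averaged 73.3 FPKM in PR2, 44.0 in PR1 and 22.6 in parental cells. PLAUR rose in PR2 by 1.70 and in PR1 by 0.93 on the log2 scale (limma adjusted p = 0.00068 and 0.024). The PLAUR call in PR1 was lost without PR1 A, PR1 C, parental B or parental C (limma adjusted p = 0.052 to 0.090), and its difference of 0.76 between PR2 and PR1 (limma adjusted p = 0.046) without any of PR2 A, PR2 B, PR2 C, PR1 B or PR1 C (limma adjusted p = 0.086 to 0.14). PLAU, urokinase itself, averaged 165 FPKM in PR2, 81.7 in PR1 and 119 in parental cells and was not called, though its difference between PR2 and PR1 of 0.93 (limma adjusted p = 0.064) passed without PR2 A (limma adjusted p = 0.0077), after removal of the A libraries (limma adjusted p = 0.0090) and with the letter as a block (limma adjusted p = 0.046).

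PLAT, tissue plasminogen activator, averaged 30.7 FPKM in PR2, 135.7 in PR1 and 158 in parental cells. PLAT fell by 2.78 in PR2 on the log2 scale (limma adjusted p = 0.014), or by 1.79 without PR2 A, a call lost without parental B (limma adjusted p = 0.057). Its difference of −2.55 between PR2 and PR1 (limma adjusted p = 0.025) was −1.56 without PR2 A and lost without PR1 B or PR1 C (limma adjusted p = 0.079 and 0.060). The Kunitz inhibitor gene TFPI2 rose in PR2 by 2.71 (limma adjusted p = 0.0021) and was higher than in PR1 by 2.41 (limma adjusted p = 0.0054). PROCR, the protein C receptor, rose in PR2 by 1.78 (limma adjusted p = 0.00031) and in PR1 by 0.96 (limma adjusted p = 0.014), and the PR1 call was lost without parental B (limma adjusted p = 0.052). VTN, which encodes vitronectin, an adhesion protein of plasma and matrix, reached 0.0247 FPKM at most.

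Of 11 tested serine protease targets, 2 rose and 4 fell in PR2 against parental cells, 1 rose and 1 fell in PR1, and 2 were higher and 3 lower in PR2 than in PR1. In all, 54.5%, 18.2% and 45.5% were called, beside 23.4%, 15.5% and 19.9% of all tested rows, with PR1 near the background. TMPRSS4, a membrane serine protease, fell by 4.97 in PR2 and 3.95 in PR1 on the log2 scale (limma adjusted p = 0.00029 and 0.0019). The protein C gene PROC rose in PR2 by 1.54 (limma adjusted p = 0.0010), and the convertase gene PCSK5 rose in PR1 by 0.87 (limma adjusted p = 0.0021). PCSK5 fell by 0.65 in PR2 against parental cells (limma adjusted p = 0.0062). It was also lower in PR2 than in PR1 (log2 difference −1.52, limma adjusted p = 7.3e-05). PCSK5 reached 1 FPKM only in the PR1 libraries, so its comparisons with PR1 are not free of the filter. TMPRSS2 was lower in PR2 than in PR1 by 3.08 (log2 difference −3.08, limma adjusted p = 0.00028), and PROC was higher there by 1.24 (limma adjusted p = 0.0047). ST14, which encodes matriptase, averaged 334 FPKM in PR2, 314 in PR1 and 341 in parental cells, and FURIN averaged 35.5 in PR2, 36.1 in PR1 and 37.4 in parental cells, with log2 differences of −0.03 and −0.07 in PR2 against parental cells (limma adjusted p = 0.92 and 0.82). ELANE, CTSG, CMA1 and GZMB, proteases that SERPINA1, SERPINA3, SERPINB1 and SERPINB9 inhibit, were listed at 0 in every library.

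Of 12 tested cysteine proteases, 2 rose and 3 fell in PR2 against parental cells, 1 rose and 3 fell in PR1, and 1 was higher and 2 lower in PR2 than in PR1. That made 41.7%, 33.3% and 25.0% called, beside 23.4%, 15.5% and 19.9% of all tested rows, with the share of PR2 against PR1 near the background. CTSC, the cathepsin that activates granule serine proteases, fell by 2.05 in PR2 and 0.85 in PR1 on the log2 scale (limma adjusted p = 1.0e-05 and 0.0029), and was lower in PR2 than in PR1 by 1.20 (log2 difference −1.20, limma adjusted p = 0.00036). CTSF fell by 1.90 in PR2 and 2.12 in PR1 (limma adjusted p = 0.011 and 0.010). CTSZ rose in PR2 by 0.86 and in PR1 by 1.15 (limma adjusted p = 0.0077 and 0.0025). CTSB was higher in PR2 than in PR1 by 1.03 (limma adjusted p = 0.047), a call lost in 5 fits that each left out a library (PR2 B, PR2 C, PR1 A, PR1 B or PR1 C, limma adjusted p of up to 0.16). CTSL, a target of SERPINB3, averaged 20.9 FPKM in PR2, 16.7 in PR1 and 20.9 in parental cells and was not called. Without PR1 A, however, the CTSL difference was −0.68 in PR1 against parental cells (limma adjusted p = 0.020), against −0.37 with it, and 0.68 in PR2 against PR1 (limma adjusted p = 0.016), against 0.37 with it. Of 4 tested complement proteases, the targets of SERPING1, 1 fell in PR2 and 2 in PR1 against parental cells and none rose, and 1 was higher in PR2 than in PR1. Of so few genes these are 25.0%, 50% and 25.0%, beside 23.4%, 15.5% and 19.9% of all tested rows, and the share of PR2 against parental cells was near the background. C1R fell by 0.98 in PR2 and 1.15 in PR1 (limma adjusted p = 0.019 and 0.013), calls lost without parental B (limma adjusted p = 0.075 and 0.052) and, for PR2, without PR2 A (limma adjusted p = 0.054). C1S fell in PR1 (log2 difference −1.1235, limma adjusted p = 0.0026). It was higher in PR2 than in PR1 by 0.74 (limma adjusted p = 0.017). That difference was lost without PR2 B or PR2 C (limma adjusted p = 0.068 and 0.065). C1R and C1S reached 1 FPKM only in the parental libraries and in PR2 B. Both passed the filter through their parental level, so their falls are not free of it.

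Of 7 tested receptors that clear serpin complexes, none changed in PR2 against parental cells (1 at an unadjusted p under 0.05 in limma), 1 fell in PR1, and 1 was higher and 1 lower in PR2 than in PR1. The shares of 0%, 14.3% and 28.6% stood beside 23.4%, 15.5% and 19.9% of all tested rows. VLDLR fell by 1.25 in PR1 on the log2 scale (limma adjusted p = 0.0035). It was higher in PR2 than in PR1 by 0.78 (limma adjusted p = 0.028). That difference was lost without PR2 A, PR2 C, PR1 A, PR1 B or PR1 C (limma adjusted p = 0.057 to 0.073). VLDLR reached 1 FPKM only in parental B, parental C and PR2 A, so its low PR1 level is not free of the filter. SORL1 was lower in PR2 than in PR1 by 0.84 (log2 difference −0.84, limma adjusted p = 0.018), lost without PR2 B, PR1 B or PR1 C (limma adjusted p = 0.062 to 0.068). LRP1, a receptor that takes up protease and inhibitor complexes, averaged 1.43 FPKM in PR2, 1.16 in PR1 and 1.36 in parental cells and was not called.

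Of 15 tested collagen folding partners of SERPINH1, 3 rose and 2 fell in PR2 against parental cells, 1 rose and 3 fell in PR1, and 4 were higher and 2 lower in PR2 than in PR1. As shares these are 33.3%, 26.7% and 40%, beside 23.4%, 15.5% and 19.9% of all tested rows. The prolyl hydroxylase gene LEPREL1 rose by 1.46 in PR2 and 2.42 in PR1 on the log2 scale (limma adjusted p = 0.00070 and 6.3e-05). The lysyl hydroxylase gene PLOD2 fell by 1.41 in PR2 and 2.30 in PR1 (limma adjusted p = 0.0021 and 0.00023). FKBP10 fell by 1.47 in PR2 (limma adjusted p = 0.029), a call lost without PR2 A, PR2 C, parental B or parental C (limma adjusted p = 0.065 to 0.10). It was lower in PR2 than in PR1 by 2.10 (log2 difference −2.10, limma adjusted p = 0.0069), and P4HA2 was higher there by 1.76 (limma adjusted p = 0.00079). P4HB averaged 768 FPKM in PR2, 531 in PR1 and 879 in parental cells. It fell by 0.73 in PR1 (limma adjusted p = 0.014), a call lost without PR1 B or parental C (limma adjusted p = 0.059 and 0.054), and its difference of 0.54 between PR2 and PR1 (limma adjusted p = 0.042) was lost without any of PR2 A, PR2 B, PR2 C, PR1 B or PR1 C (limma adjusted p = 0.080 to 0.14).

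Of 16 tested protease inhibitors outside the serpin family, 4 rose and 6 fell in PR2 against parental cells, 1 rose and 4 fell in PR1, and 4 were higher and 2 lower in PR2 than in PR1. Those called were 62.5%, 31.2% and 37.5% of the list, beside 23.4%, 15.5% and 19.9% of all tested rows. The cystatin gene CST6 averaged 1491 FPKM in PR2, 423 in PR1 and 157 in parental cells and rose in PR2 by 3.40 on the log2 scale (limma adjusted p = 0.00060). In PR1 it rose by 1.53 (limma adjusted p = 0.049), a call lost without PR1 A, PR1 B, parental B or parental C (limma adjusted p = 0.10 to 0.17). CST2 fell by 3.75 in PR2 (limma adjusted p = 3.0e-06). CST2 and CST4, both counted among the falls, reached 1 FPKM only in the parental libraries. They passed the filter through that group alone, so they had to be lower in the derivatives and their calls are no free test. CSTA, the epidermal cystatin, fell by 4.29 in PR1 (limma adjusted p = 0.00030), and the metalloprotease inhibitor gene TIMP2 was higher in PR2 than in PR1 by 3.04 (limma adjusted p = 0.00015). SLPI, the secretory leukocyte protease inhibitor, which shares neutrophil elastase with SERPINA1, averaged 99.2 FPKM in PR2, 274 in PR1 and 617 in parental cells. SLPI fell by 2.66 in PR2 against parental cells (limma adjusted p = 0.0020) and was not called in PR1 (log2 difference −1.11, limma adjusted p = 0.12). It was lower in PR2 than in PR1 by 1.55 (log2 difference −1.55, limma adjusted p = 0.035), a call lost without PR2 A, PR1 B or PR1 C (limma adjusted p = 0.074 to 0.11).

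Acute-phase genes keep company with SERPINA1 and SERPINA3 in inflammation. Of 10 tested, none rose and 2 fell in PR2 against parental cells, 1 rose and 2 fell in PR1, and 2 were higher and 2 lower in PR2 than in PR1. Called were 20.0%, 30.0% and 40%, beside 23.4%, 15.5% and 19.9% of all tested rows, so the share of PR2 against parental cells lay under the background. CP, which encodes ceruloplasmin, averaged 1.21 FPKM in PR2, 12.5 in PR1 and 39.4 in parental cells and fell by 4.12 in PR2 on the log2 scale (limma adjusted p = 0.00033). In PR1 CP fell by 1.78 (limma adjusted p = 0.038), or by 1.09 without PR1 A, a call lost without parental B or parental C (limma adjusted p = 0.14 and 0.081). SAA1 was higher in PR2 than in PR1 by 2.04 (limma adjusted p = 0.0050), and CP was lower there (log2 difference −2.34, limma adjusted p = 0.0098). The receptor gene IL6ST rose in PR1 by 0.70 (limma adjusted p = 0.047), a call lost without PR1 B, PR1 C, parental A or parental B (limma adjusted p = 0.063 to 0.16). AGT, the angiotensinogen gene and a clade A serpin under another symbol, was not tested and stood at 0.0419 to 0.657 FPKM in PR2, 0.0799 to 0.474 in PR1 and 0.313 to 2.42 in parental cells.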

How the data were processed

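RNA-seq was analysed in 9 libraries of LC-2/ad and its derivatives PR1 and PR2, 3 per group. Per the submitters' processing notes, TopHat2 2.0.14, Cufflinks 2.2.1 and Cuffdiff 2.2.1 were used with GRCh37/hg19, with annotation and read numbers not given in the sources used here. No unit stands in the deposited header. Its values were taken as FPKM as made by the authors, from the tools named and from steps among low values that scale with single fragments, so the depth of a library is known only relative to the others and no counting interval is given. Low values rest on few fragments.

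Rows with 1 FPKM or more in at least 3 libraries were tested on log2(FPKM + 1), which understates changes of low genes, in limma 3.58.1 (R 4.3.3) with 1 mean per group over all 9 libraries, a trended variance and two-sided Benjamini-Hochberg adjusted p-values. The model was tested on simulated data. The serpins and the gene lists were chosen with earlier results of these data known. Of the 35 serpins the symbol rule takes, 1 is not reported here and is left out of the serpin counts and sums, though it stays in the fit. The other tested serpins are all named, and from the other lists a fixed set and the largest called rise and fall in each comparison. Alternatives were the pseudocount, the filter, quantile normalization, a fit of the 2 groups alone and a fit without the variance trend. Others were the library letter as a replicate block, and leaving out each library or the 3 A libraries.

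Libraries of the same letter deviated together in PR1 and parental cells (r = 0.31, 0.48 and 0.16 across genes for A, B and C) and in PR2 and PR1 (r = 0.53, 0.54 and 0.25), so they were read as pairs there, a pairing that comes from the data and not from the labels. In PR2 and parental cells the values were 0.30, 0.42 and 0.01, and they were not read as pairs. Those of A and B were near the values of PR1 and parental cells, however. Pairing by letter in the other comparisons would also imply it here, so this reading is uncertain. The main fit used no pairing in any comparison, and the letter as a block was only an alternative. Promoter windows came from RefSeq (GRCh38.p14), and no coordinates were carried between builds.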

Additional observations from a re-analysis of the deposited data

Results flagged for a closer look

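In 4 serpins the difference from parental cells was not the same in PR2 as in PR1, by the test of PR2 against PR1, in which the shared parental libraries cancel. The value, PR2 minus PR1 on the log2 scale, was 3.08 for SERPINA1 (limma adjusted p = 0.00066). It was 1.35 for both SERPINB7 and SERPINE2 (limma adjusted p = 0.0020 and 0.0082) and 0.77 for SERPINB8 (limma adjusted p = 0.0100). SERPINB7 passed the filter on low values only through its PR2 libraries, so it had to differ there and supports nothing. In each of the 4, all PR2 libraries lay above all PR1 libraries. That adds no support, since the 4 were picked by the test of the same libraries, and the share of such rows among all tested was not counted.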

How the results depend on the processing

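Under the alternatives run, 6 of 7 serpin calls of PR2 against parental cells, 3 of 4 of PR1 against parental cells and 4 of 4 of PR2 against PR1 were kept in every fit that tested the gene. No called value changed sign. Values that were not called changed sign 9 times in 3 genes for PR1 against parental cells and once in 1 gene for PR2 against PR1. With a filter at 5 FPKM, which leaves 7 serpins, 4 were called in PR2 against parental cells and 2 in PR2 against PR1, and of the other listed genes 15 in PR1 against parental cells and 19 in PR2 against PR1. The replicate block gave 7 called serpins in PR2 against PR1, and 9 in PR2 against parental cells, where the letters were not read as pairs and where SERPINA1 and SERPINF2 were added (limma adjusted p = 0.033 and 0.0086). The called genes among the other 86 listed also rose under the block, from 31 to 40 in PR2 against PR1 and from 33 to 40 in PR2 against parental cells. Shares of all tested rows were not counted under any alternative. Leaving out single libraries gave 6 to 7 called serpins in PR2 against parental cells, 3 to 6 in PR1 against parental cells and 4 to 6 in PR2 against PR1. The other listed genes then gave 24 to 35, 15 to 24 and 15 to 28 calls. Apart from the smaller number of libraries or genes, the cause was not tested. A pseudocount of 0.1 moved called values of low genes by over 1.5 times, among them C1R, C1S, CST2, PCSK5, PROC, PROCR, TMPRSS2 and VLDLR, in the same direction. Depth limits the serpins under about 1 FPKM, and 3 libraries a group limit every comparison.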
